A study of Arabidopsis thaliana with 8 samples.

Results

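IRX15 (AT3G50220), IRX15-L (AT5G67210) and GUT2 (AT1G27440, also called IRX10) act in making xylan, and their transcripts were followed across 3 sorted cell populations of the Arabidopsis thaliana root. The 3 genes were chosen by name, with earlier results of these data known. Each had 1 probe set that the array annotation ties to a single gene, out of 13356 genes with such a probe set. The arrays held differentiating xylem (n = 3), phloem sieve cells with companion cells (n = 2) and cortex (n = 3), all from wild type Columbia seedlings aged 6 days. Seedlings grew on mesh over agar medium with 1% sucrose at 22 degrees Celsius under 16 h of light and 8 h of dark, and tips of about 1 cm were cut from the roots. The tips were turned into protoplasts, cells that carried green fluorescent protein (GFP) were sorted, and their RNA was amplified in 2 cycles before hybridisation to Affymetrix arrays. By their labels the arrays of one population are biological replicates. The labels name neither the GFP line behind each sort nor the number of plants per array, so a population is whatever cells its line marked. The profiles were meant as a reference for where GFP fusions of promoters appear under the microscope.

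Xylan is a chain of xylose units and the main hemicellulose of the secondary walls of xylem vessels and fibres, where it lies against cellulose and lignin. It is made in the Golgi apparatus, where glycosyltransferases of several families build the chain and other enzymes add glucuronic acid and acetyl groups. GUT2 is a glycosyltransferase of family GT47 that adds xylose to the growing chain. IRX15 and IRX15-L are a closely related pair of Golgi proteins with a DUF579 domain. Plants that lack both make altered xylan and have collapsed vessels, the irregular xylem phenotype that gave these genes their name.

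The authors deposited linear array intensities made with MAS5, 1 value per probe set and array. In differentiating xylem all 3 genes were bright on every array, and in phloem and cortex IRX15 lay near the bottom of the scale, GUT2 was dim, and IRX15-L was dim in phloem and intermediate in cortex. Every xylem array lay above every phloem and cortex array for 3 of 3 genes, which held for 12.1% of the 22746 probe sets tested. As the genes were chosen with earlier results known, this share and those below give a background and do not test the choice. Levels are not compared between genes, since each probe set has its own brightness. A lower intensity in a sorted population can mean fewer expressing cells or less RNA per cell, and bulk arrays cannot tell these apart.

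IRX15 had intensities of 3997, 3093 and 3866 in xylem replicates 1, 2 and 3, against 3.17 and 7.09 in phloem and 3.21, 1.99 and 1.69 in cortex. The xylem mean was 3652 ± 488 (SD, n = 3). All 5 phloem and cortex arrays were under 16, the value added to every intensity before the log, and the files hold no detection calls, so nothing shows that IRX15 was above background in either population. For that reason no ratio of its raw intensities is given.

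IRX15-L had 4668, 5248 and 3967 in the xylem replicates, against 77.3 and 112 in phloem and 221, 396 and 210 in cortex. The means were 4628 ± 641 in xylem (SD, n = 3), 94.7 ± 24.7 in phloem (n = 2) and 276 ± 104 in cortex (n = 3). The 3 populations did not overlap, and their order was xylem, cortex, phloem. Mean intensity in phloem was 2.05% of that in xylem, and mean intensity in cortex was 5.96% of it. Cortex replicate 2 stood above the other cortex arrays.

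GUT2 had 6214, 6207 and 4966 in the xylem replicates, against 87.5 and 90.8 in phloem and 77.3, 99.4 and 67.9 in cortex. The means were 5796 ± 718 in xylem (SD, n = 3), 89.2 ± 2.28 in phloem (n = 2) and 81.5 ± 16.2 in cortex (n = 3). Both phloem arrays fell inside the cortex range. Mean intensity in phloem was 1.54% of that in xylem, and mean intensity in cortex was 1.41% of it. The median intensity of an array was 70.3 to 73.6 in phloem and 61.4 to 62.4 in cortex. Without detection calls, how much of these dim GUT2 values is background is not known. The same holds for IRX15-L in phloem, and ratios to such values carry that doubt. The 3 genes did not share an order among the xylem arrays: replicate 2 was the lowest for IRX15 and the highest for IRX15-L, and replicate 3 was the lowest for IRX15-L and GUT2.

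**Figure D1:**
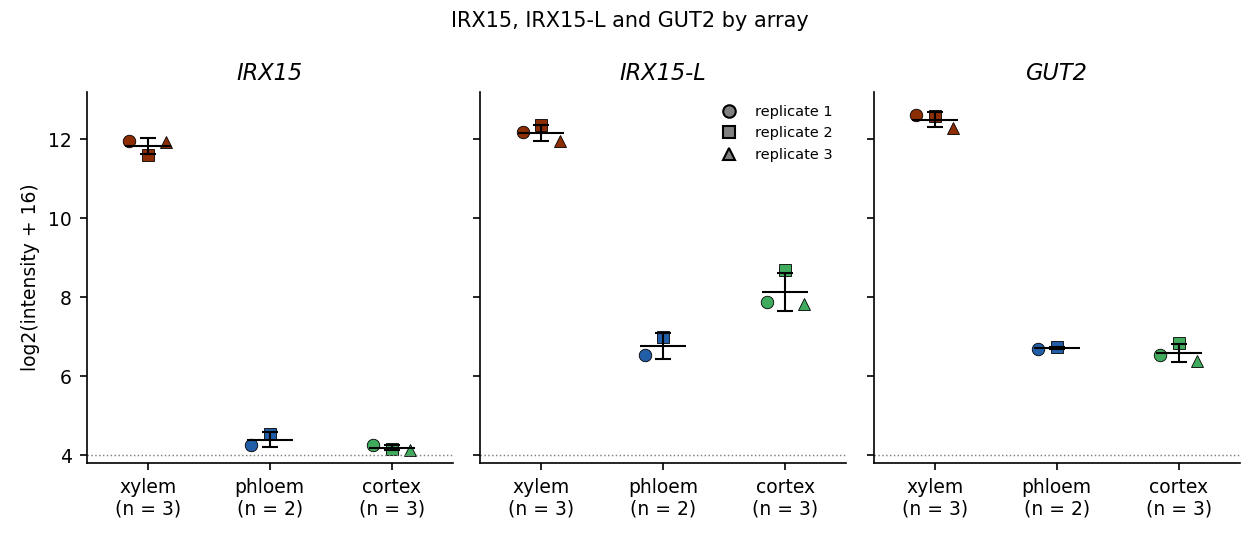
IRX15, IRX15-L and GUT2 on each array, as log2(intensity + 16) on the vertical axis, for xylem (n = 3), phloem (n = 2) and cortex (n = 3); points are arrays, the wide bar is the mean, the whisker is the SD, and the dotted line is the value of an intensity of 0. IRX15 in phloem and cortex sits close to the dotted line, and IRX15-L stands higher in cortex than in phloem.

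Xylem was set against cortex, the ground tissue around the stele. The test was limma, fitted across all probe sets on log2(intensity + 16), with Benjamini-Hochberg adjustment over all of them and a threshold of 0.05. IRX15 was higher in xylem by 7.64 on that log2 scale (SE 0.18, 95% interval 7.24 to 8.04, adjusted p = 3.02e-08). As its cortex values lie under the added 16, the size of this difference follows that constant, at 10.13 with a pseudocount of 1 and 5.80 with one of 64. GUT2 was higher by 5.90 (SE 0.17, interval 5.51 to 6.29, adjusted p = 5.71e-08), and its mean raw intensity was 71.1-fold that in cortex. IRX15-L was higher by 4.04 (SE 0.25, interval 3.46 to 4.62, adjusted p = 3.19e-06), or 16.8-fold in mean raw intensity. All 3 genes were called higher, against 13.5% of all probe sets, while 29.1% were called lower. Counted down from the largest rise in xylem, IRX15 was number 18 of all probe sets, GUT2 number 111 and IRX15-L number 285. Probe sets lower in xylem come after these in that count, however large their difference. The order of the 3 genes held with a pseudocount of 1, where they stood at 6, 174 and 372, and with one of 64, where they stood at 52, 81 and 199.

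Xylem was then set against phloem, the other vascular population. IRX15 was higher in xylem by 7.44 on the log2 scale (SE 0.20, interval 6.99 to 7.88, limma adjusted p = 1.46e-07). GUT2 was higher by 5.78 (SE 0.19, interval 5.35 to 6.21, adjusted p = 2.67e-07), with a mean raw intensity 65.0-fold that in phloem. IRX15-L was higher by 5.40 (SE 0.28, interval 4.75 to 6.05, adjusted p = 1.93e-06), or 48.8-fold in mean raw intensity. Again all 3 were called higher, against 13.9% of all probe sets, and 28.5% were called lower. Counted down from the largest rise in xylem over phloem, IRX15 was number 3 of all probe sets, GUT2 number 58 and IRX15-L number 83. They stood at 2, 86 and 113 with a pseudocount of 1 and at 16, 41 and 73 with one of 64. This comparison shares its xylem arrays with the one against cortex, so the 2 are not independent.

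**Figure D2:**
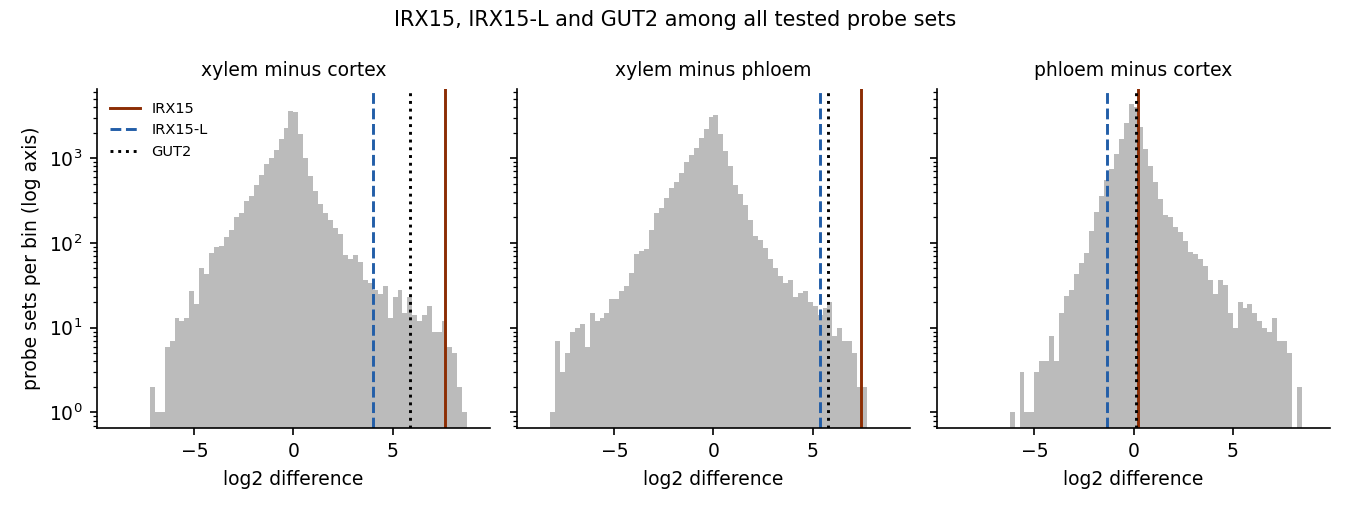
Log2 differences of all 22746 tested probe sets (grey, number per bin on a log axis) for each pair of populations, with IRX15 (solid line), IRX15-L (dashed line) and GUT2 (dotted line). All 3 lines lie far to the right in both xylem comparisons, with IRX15 outermost at 7.64 and 7.44, and the dashed line lies left of 0 at -1.36 in phloem minus cortex.

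Between phloem and cortex IRX15-L was the 1 gene of the 3 that passed. It was lower in phloem, at -1.36 on the log2 scale (SE 0.28, interval -2.01 to -0.71, limma adjusted p = 0.0073), with both phloem arrays below all 3 cortex arrays. IRX15 differed by 0.20 (SE 0.20, interval -0.25 to 0.65, adjusted p = 0.526) and GUT2 by 0.12 (SE 0.19, interval -0.31 to 0.55, adjusted p = 0.717), so neither passed. For IRX15 both populations were at the bottom of the scale, where the added 16 shrinks any difference. With a pseudocount of 1 phloem minus cortex was 0.85 for IRX15 (limma adjusted p = 0.147), which did not pass either. Of all probe sets, 14.8% were called lower in phloem and 12.2% higher, and for 30.5% every phloem array lay below every cortex array. The call of IRX15-L was lost without phloem replicate 1, at -1.13 (adjusted p = 0.0743), and over all alternatives its adjusted p ran from 0.000603 to 0.0743. Without the brightest cortex array, replicate 2, it was -1.08 (adjusted p = 0.0147). Of 4 cortex markers, 3 were called lower in phloem too and AT1G62500 was not called (25.7 in phloem against 16.2 in cortex), and their summed intensities were 111 to 112 in phloem and 3623 to 4575 in cortex. Of 3 genes listed for endodermis and ground tissue, SGN3 and JKD were called lower in phloem, and AT1G61590 was not called, at 132 to 175 in phloem against 79.8 to 100 in cortex; the 3 summed to 311 to 333 in phloem and 626 to 961 in cortex. The GAPDH 3' to 5' ratio, a sign of RNA quality, was 5.91 and 8.79 in phloem against 1.98 to 2.60 in cortex. The part of these in the IRX15-L difference was not tested. The xylem markers C3H14, TBL34 and PHV together summed to 152 to 189 in phloem and 101 to 136 in cortex.

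Whether the 3 genes differed in how far xylem stood from the rest was tested on the difference between 2 genes on each array, with xylem arrays against the 5 others. IRX15 rose beyond IRX15-L in xylem by 2.98 on the log2 scale and beyond GUT2 by 1.70, and GUT2 rose beyond IRX15-L by 1.27. The 1.27 pools phloem with cortex: GUT2 minus IRX15-L averaged 0.33 in xylem, -0.06 in phloem and -1.54 in cortex. That gap was thus smaller against phloem than against cortex. Each of the 3 pairs gave p = 0.0357 in a 2-sided exact permutation test (adjusted p = 0.0357 over the 3 pairs), the smallest value that 3 arrays against 5 allow, and in each the 3 xylem arrays lay apart from all others. The sizes that involve IRX15 rest on the added constant: IRX15 against GUT2 came to 3.71 with a pseudocount of 1 and 0.48 with one of 64, while GUT2 against IRX15-L came to 1.37 and 1.05. Between phloem and cortex, GUT2 minus IRX15-L differed by 1.48 and IRX15 minus IRX15-L by 1.56, and in both pairs all phloem arrays lay above all cortex arrays. With 2 arrays against 3 the smallest possible 2-sided exact permutation p is 0.2, which both gave (adjusted p = 0.4 over 4 pairs), so this test could not pass there.

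The closest relative of GUT2 is GUT1 (AT5G61840, also called IRX10-L), which shares its role in the xylan chain. GUT1 had 1602 to 1795 in xylem, 250 to 281 in phloem and 450 to 552 in cortex, so the populations did not overlap. Xylem exceeded cortex by 1.72 on the log2 scale (SE 0.15, limma adjusted p = 1.95e-05) and phloem by 2.63 (SE 0.16, adjusted p = 4.71e-06), while phloem minus cortex was -0.91 (SE 0.16, adjusted p = 0.00324). Its mean intensity in phloem was 15.4% of that in xylem, and in cortex 29.9% of it, against 1.54% and 1.41% for GUT2. The xylem rise of GUT2 exceeded that of GUT1 by 3.77 (2-sided exact permutation p = 0.0357, the smallest possible with 3 against 5 arrays, for a pair added after the values were seen). GUT1 thus had the order of IRX15-L, xylem above cortex above phloem with each step called, which 1.42% of all probe sets had (323 of 22746). GUT1 minus IRX15-L differed between phloem and cortex by 0.45, with overlapping arrays (exact permutation p = 0.4).

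Of 8 further genes placed in the DUF579 family of IRX15 and IRX15-L, 4 had a single-gene probe set, and none was higher in xylem than in cortex or phloem. The placing rests on general knowledge of the family, as the annotation used here gives these genes a locus tag only. AT1G67330 had 42.6 to 60.4 in xylem, 819 to 1044 in phloem and 1139 to 1790 in cortex, and was lower in xylem at -4.41 against cortex (SE 0.21, limma adjusted p = 5.72e-07) and at -3.83 against phloem (SE 0.23, adjusted p = 4.03e-06). AT1G27930 had 90.5 to 102 in xylem, 293 to 346 in phloem and 669 to 1219 in cortex, at -2.96 against cortex (SE 0.22, adjusted p = 9.08e-06) and -1.56 against phloem (SE 0.25, adjusted p = 0.000988). These are the reverse of the differences of IRX15 and IRX15-L on the same arrays. AT2G15440 was highest in phloem, with means of 29.2 ± 11.5 in xylem (SD, n = 3), 160.9 ± 61.0 in phloem (n = 2) and 34.9 ± 7.52 in cortex (n = 3), and differed between xylem and cortex by -0.19 (SE 0.27, adjusted p = 0.629). AT1G71690 was dim in all 3 populations, between 1.75 and 21.1, and passed in no pair. Of the 4, 0 were called higher and 2 lower in xylem than in cortex, against 13.5% and 29.1% of all probe sets. Against phloem 0 were higher and 3 lower, where 13.9% and 28.5% of all probe sets were. The median log2 difference was -1.58 against cortex (-0.14 for all probe sets) and -1.76 against phloem (-0.15). With 4 genes, these counts are too few to be told from the shares.

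**Figure D3:**
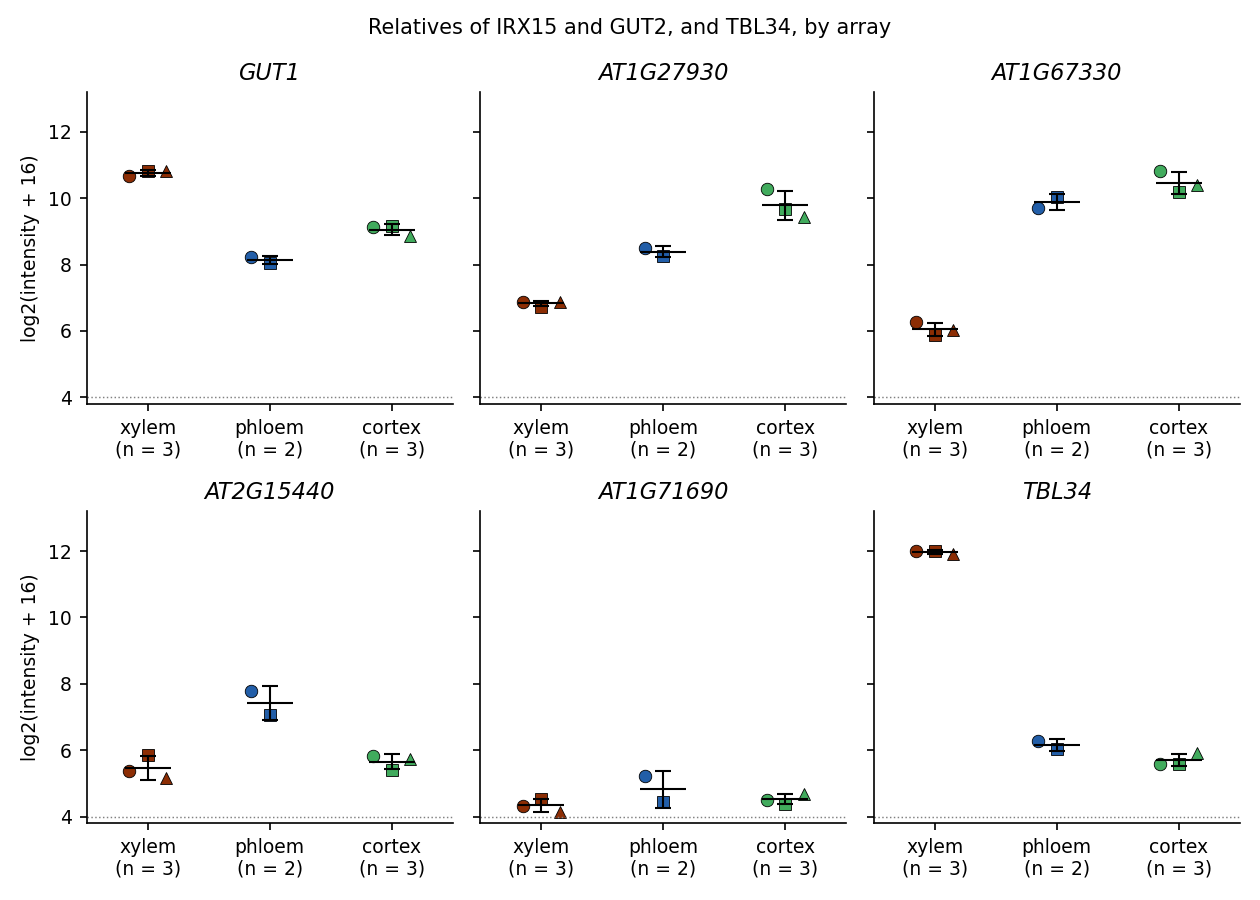
GUT1, 4 further DUF579 genes and the xylan acetyltransferase gene TBL34 on each array, as log2(intensity + 16), for xylem (n = 3), phloem (n = 2) and cortex (n = 3), with points for arrays (circle, square and triangle for replicates 1, 2 and 3), mean bars and SD whiskers. GUT1 and TBL34 are highest in xylem, AT1G27930 and AT1G67330 are lowest there, and AT2G15440 is highest in phloem.

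The genes chosen to stand for the rest of the pathway numbered 111, those relatives included, and 15 had a single-gene probe set. The DUF579 relatives are listed by family, and nothing here shows that they act on xylan. In the counts that follow they give 2 of the genes lower in xylem than in cortex and 3 of those lower than in phloem. Of these 15, 5 were higher and 7 lower in xylem than in cortex, where 13.5% and 29.1% of all probe sets were, with a median log2 difference of -0.19 against -0.14 for all probe sets. Against phloem 5 were higher and 6 lower in xylem (median -0.40 against -0.15), where 13.9% and 28.5% of all probe sets were. Between phloem and cortex 4 were higher and 6 lower in phloem (median -0.14 against -0.03), where 12.2% and 14.8% of all probe sets were. Higher in xylem than in both other populations were 4 of the 15, GUT1, TBL34, HCT and C3H14, and 8.9% of all probe sets. None of the genes listed for the reducing end of xylan, glucuronic acid side chains, secondary wall cellulose or xylem cell death had a single-gene probe set, and these steps were not analysed here.

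Acetyl groups are put on xylan by enzymes of the TBL family, of which 5 listed genes were measured. TBL34 (AT2G38320) had 3838 to 4121 in xylem, 49.7 to 61.9 in phloem and 31.9 to 43.8 in cortex, and was higher in xylem by 6.28 against cortex (SE 0.16, limma adjusted p = 3.61e-08) and by 5.82 against phloem (SE 0.17, adjusted p = 2.19e-07). The other 4 were lower in xylem than in cortex: TBL35 at -3.92, TBL28 at -2.46, TBL32 at -1.82 and TBL30 at -1.45, with limma adjusted p-values of at most 0.00752. Against phloem, TBL28 at -3.81, TBL35 at -2.11 and TBL30 at -1.44 were lower in xylem, the last a call lost under 4 of 17 alternatives, while TBL32 differed by -0.26 (SE 0.39). TBL32 was read by a probe set that can bind transcripts of related genes. Of the 13 genes listed for acetylation only 5 were measured, and 1 had the pattern of IRX15 and GUT2 and 4 did not. Among all probe sets, 8.9% were higher in xylem than in both other populations. The shares lower in xylem were 29.1% against cortex and 28.5% against phloem.

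Xylose reaches the Golgi apparatus as a nucleotide sugar, and 2 of 13 genes listed for that supply were measured, both named by locus tag only in the annotation. AT1G06890 had 1277 to 1406 in xylem, 603 to 639 in phloem and 1157 to 1492 in cortex. It was higher in xylem than in phloem by 1.08 (SE 0.16, limma adjusted p = 0.000766) and differed between xylem and cortex by -0.0047 (SE 0.15, interval -0.34 to 0.33), a value that became 0.43 with median centring and -1.08 with scaling to the spike-ins and passed under both. For AT2G30460 xylem minus cortex was -0.57 (SE 0.16, adjusted p = 0.0211), a call lost under 7 of 18 alternatives. Both were lower in phloem than in cortex, AT1G06890 at -1.09 and AT2G30460 at -0.66, the second a call lost under 5 of 18. In the values as deposited neither was called higher in xylem than in both other populations.

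Among the lignin genes 2 of 21 were measured. HCT (AT5G48930), an acyltransferase of the lignin pathway, was higher in xylem by 2.51 against cortex (SE 0.25) and by 1.65 against phloem (SE 0.28). PRX72 (AT5G66390), a wall peroxidase, stood at 562 to 639 in xylem, 701 to 903 in phloem and 59.7 to 150 in cortex. Its xylem minus cortex difference was 2.36 (SE 0.28) and passed, and xylem minus phloem was -0.40 (SE 0.31, limma adjusted p = 0.35). Of 31 regulators, only C3H14 (AT1G66810), a zinc finger protein that acts in secondary wall formation, was measured. It had 2328 to 2524 in xylem, 46.9 to 58.2 in phloem and 42.3 to 79.8 in cortex, a rise of 5.03 over cortex (SE 0.20) and 5.17 over phloem (SE 0.22). Like GUT2, it did not pass between phloem and cortex, at -0.14 (SE 0.22).

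**Figure D4:**
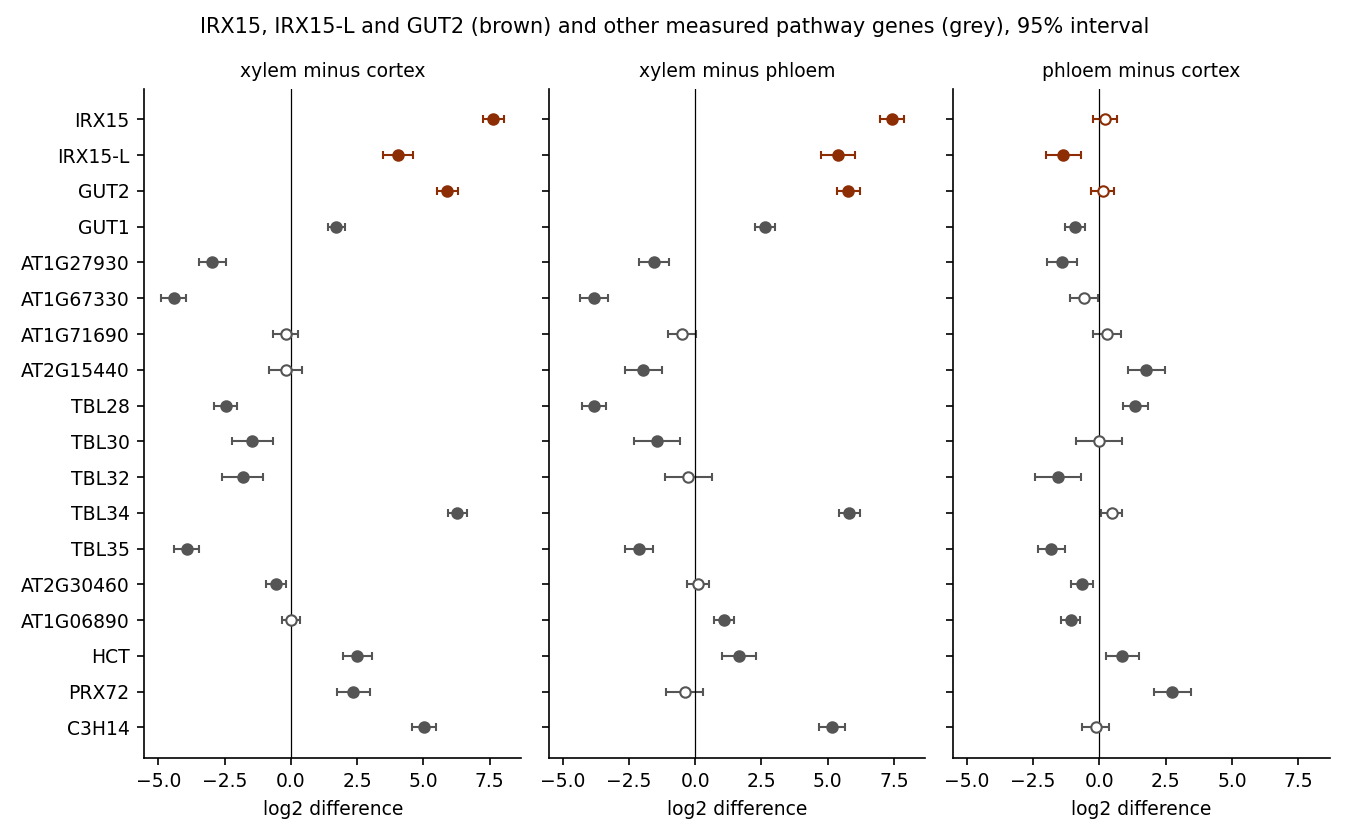
Log2 differences with 95% intervals for IRX15, IRX15-L and GUT2 (brown) and the 15 other measured pathway genes (grey), in each pair of populations; filled points passed the limma threshold and open points did not. Besides the 3 genes, TBL34 and C3H14 lie above 5 in both xylem comparisons, and GUT1 and HCT lie between 1.65 and 2.63.

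Likeness of pattern was measured by Pearson's r over the 8 arrays on log2(intensity + 16), as a description without a test, since 8 arrays in 3 populations make most of any such r a contrast of xylem with the rest. IRX15 and GUT2 had r = 0.998, GUT2 and IRX15-L r = 0.966, and IRX15 and IRX15-L r = 0.960. By this measure IRX15 was closer to GUT2 than to its own relative. On every phloem and cortex array IRX15 lay under the added 16, which would shrink a step like that of IRX15-L between them. The part of this in the order of r was not tested. Among the other 13510 single-gene probe sets, 332 had a mean r with the 3 genes of at least 0.95, and 68 of at least 0.98. The highest mean r belonged to AT3G15220 (0.99), AT4G39320 (0.99), AT5G06610 (0.989), AT1G59850 (0.988) and AT1G14240 (0.988). AT5G46115, AT2G15860, AT2G46300, AT2G41610 and AT2G17940 followed at 0.987 to 0.988. All 10 are known by locus tag only in the annotation. AT2G46300 was closest to IRX15 alone (r = 0.9996), AT1G59850 to GUT2 (r = 0.9995) and AT2G36710 to IRX15-L (r = 0.997). Of the pathway genes, C3H14 was number 15 by mean r (0.986), TBL34 number 69 (0.98), GUT1 number 335 (0.95) and HCT number 641 (0.904), and AT1G67330 stood near the opposite end at number 13401 (r = -0.97).

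By summed intensity the xylem, phloem and cortex marker lists were each brightest in the sort they name. The lists were chosen with earlier results of these data known, so the sums are no independent check of what the sorts hold. Most of the xylem sum came from TBL34, which averaged 4013 in xylem, against 2437 for C3H14 and 229 for PHV. Summed intensities of 3 of 10 listed xylem markers (C3H14 and TBL34, also pathway genes above, and PHV) were 6410 to 6856 in xylem, 152 to 189 in phloem and 101 to 136 in cortex, and those of 5 of 17 phloem markers were 130 to 175 in xylem, 3718 to 4298 in phloem and 280 to 339 in cortex. Single markers did not all follow the sums: the phloem marker OPS was dim everywhere, with means of 10.7 in xylem, 9.76 in phloem and 7.52 in cortex, and the cortex marker AT1G62500 averaged 12.1 in xylem, 25.7 in phloem and 16.2 in cortex. Cortex markers summed to 36.9 to 66.0 in xylem, and 2 of 5 root hair markers summed to 18.1 to 53.0 in xylem, 270 to 400 in phloem and 94.2 to 133 in cortex, although no root hair cells were to be collected. The defining xylem markers VND6, VND7, the secondary wall cellulose synthases and the XCP proteases, and the phloem markers SUC2 and APL, had no single-gene probe set and were not used. Xylem replicate 2 had the lowest trimmed mean intensity, 191 against 215 to 250 on the other arrays, and the highest 3' to 5' ratio of both GAPDH control pairs, 9.74 and 2.63. Both ratios also moved with the populations. The first was 4.89 to 9.74 in xylem and 5.91 to 8.79 in phloem against 1.98 to 2.60 in cortex, the second 1.53 to 2.63 in xylem and 1.77 to 2.15 in phloem against 1.21 to 1.49 in cortex, and their part in the differences from cortex was not tested. Without xylem replicate 2 the log2 differences of IRX15, IRX15-L and GUT2 were 7.75, 3.94 and 5.85 between xylem and cortex. Between xylem and phloem they were 7.55, 5.30 and 5.73.

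Scaling shifts the balance of calls over all probe sets, and with it the background shares above. Of the calls between xylem and cortex 31.7% were higher in xylem on the authors' scale, 48.9% with quantile normalization, 63.8% with centring on the median and 8.71% with scaling to the spike-ins, and between xylem and phloem 32.8%, 52.1%, 71.2% and 16.4%. Between phloem and cortex 45.3% of calls were higher in phloem on the authors' scale, 33.1% with centring on the median and 20.8% with scaling to the spike-ins. The median of all probe sets in xylem minus cortex ran from -0.83 after spike-in scaling to 0.29 after median centring. Across every scaling IRX15 stayed between 7.03 and 8.07, GUT2 between 4.90 and 6.34 and IRX15-L between 2.98 and 4.47 in that comparison.

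**Figure D5:**
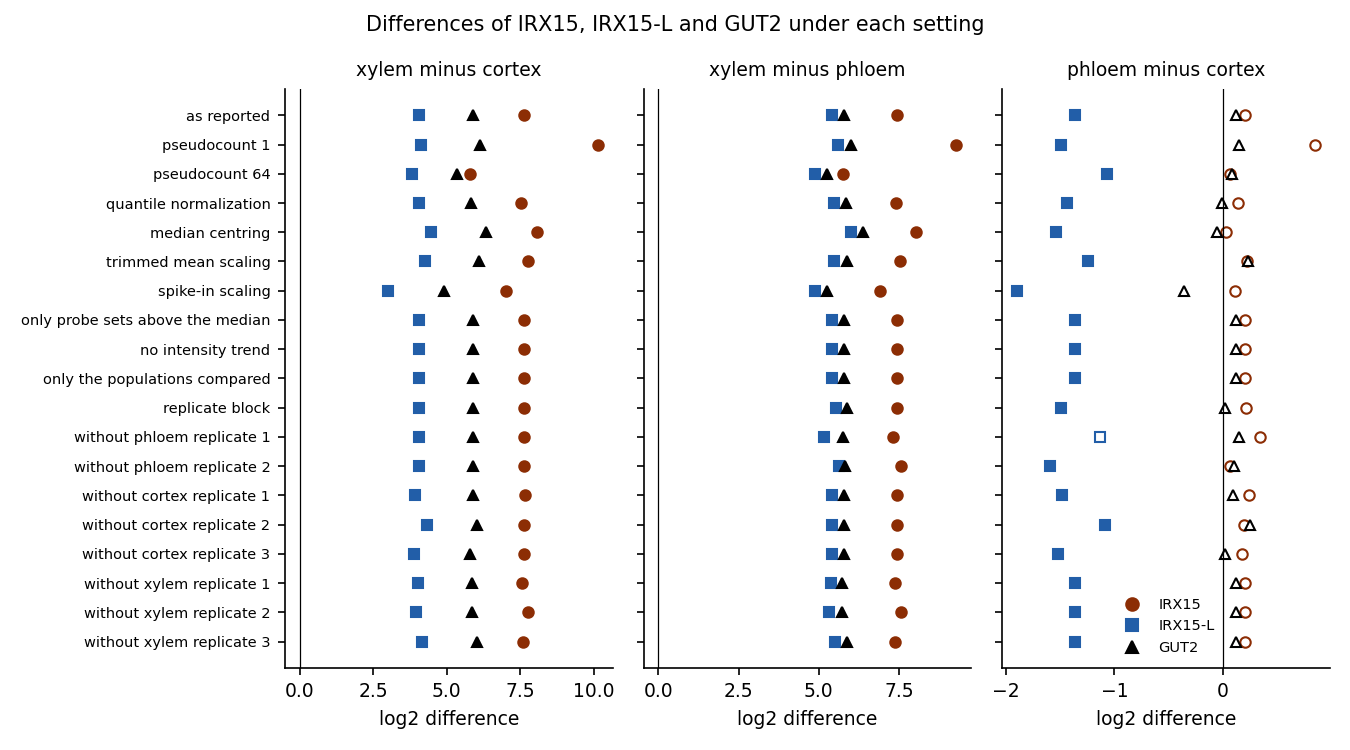
Log2 differences of IRX15 (circles), IRX15-L (squares) and GUT2 (triangles) under each setting, from the values as reported at the top to the fits that leave out 1 array; filled symbols passed the limma threshold and open ones did not, and the right panel has a narrower axis. All symbols of the xylem comparisons are filled and right of 0, and IRX15-L in phloem minus cortex is left of 0 throughout and open only without phloem replicate 1.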

How the data were processed

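The authors deposited linear MAS5 intensities, 1 per probe set and array, per the submitters' processing notes, with version, target value and genome build not given in the sources used here. Of 22810 probe sets, 64 controls were left out and 22746 tested; 13513 had 1 gene in the platform annotation, 503 several and 8730 were not listed, and symbols came from RefSeq's gene table (assembly TAIR10.1, 13436 matched). For a gene with several single-gene probe sets the brightest was used. Intensities were transformed as log2(value + 16) and fitted with limma 3.58.1 in R 4.3.3, with 1 mean per population over all 8 arrays and an intensity trend (5 residual degrees of freedom, 3.66 added by moderation). Differences on this scale understate the change of dim genes. Exact permutation tests used scipy 1.17.1 in Python 3.11.15, and plots matplotlib 3.10.9. The fit was tested on simulated data with normal noise and few changed probe sets, all raised and brighter than the median. That setting covers neither values near the bottom of the scale nor as many differences as these populations show. The number of arrays limits precision. A limma p-value sets a difference against the spread between these arrays, moderated over all probe sets. The exact permutation p-values rest on the ways these arrays can be arranged. No array repeated the values of another. The genes, lists and tests were chosen with earlier results of these data known. Named genes were the 3 genes, the measured members of the pathway and marker lists, and the 10 probe sets with the highest mean r; the genes closest to 1 member alone were chosen after their values were seen. Alternatives were other pseudocounts (1 and 64), quantile normalization, median centring, trimmed mean (2%) and spike-in scaling, a filter on dim probe sets, no trend, fits of 2 populations, a replicate block and leaving out each array.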

Additional observations from a re-analysis of the deposited data

How the results depend on the processing

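The log2 differences of IRX15, IRX15-L and GUT2 between xylem and cortex and between xylem and phloem kept their direction and passed under all 18 alternatives. IRX15 ran from 5.80 to 10.13 against cortex and from 5.74 to 9.29 against phloem, both ends set by the pseudocount. Between phloem and cortex, IRX15-L kept its sign and lost its call without phloem replicate 1, and leaving out 1 array at a time gave -1.59 to -1.08. GUT2 passed there under no alternative and was at -0.01 after quantile normalization, -0.05 with median centring and -0.36 with spike-in scaling. Same-numbered arrays of 2 populations had deviations that correlated at -0.10 to 0.15. Arrays with different numbers were not compared in this way, so these values cannot show whether the numbers pair arrays. With the replicate block IRX15-L was at -1.49, IRX15 at 0.21 and GUT2 at 0.02 between phloem and cortex. No call changed among the 3 genes. The differences between pairs of genes had p at its smallest possible value throughout, so it cannot show stability, and a scaling moves both genes of a pair nearly alike. With 1 array left out the smallest possible exact p is 0.0571 (phloem or cortex) or 0.0952 (xylem), so none could pass, and the values ran from 2.68 to 3.23 for IRX15 against IRX15-L, 1.55 to 1.87 for IRX15 against GUT2 and 1.05 to 1.55 for GUT2 against IRX15-L. Probe sets called numbered 9696 between xylem and cortex (15032 after spike-in scaling) and 6140 between phloem and cortex (9275 after spike-in scaling and 3606 to 7489 with 1 array left out, the lowest without phloem replicate 2, where the lone phloem array is assumed to vary like the others). AT1G06890 in xylem minus cortex changed sign to a called 0.43 after median centring; the cause was not tested. HCT between phloem and cortex, 0.86 and called, lost its call under 13 of 18 alternatives.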
